A study of Mus musculus with 11 samples.

Results

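The genes described here are those of ribosome biogenesis and the nucleolus, a list of 42 mouse genes whose products transcribe, modify, cut and assemble ribosomal RNA. A gene was counted as measured where at least 1 probe set of the array named it, and no other gene, by its exact symbol. This held for 40 of the 42 genes through 71 of the 20380 single-gene probe sets, out of 12393 measured genes in all; Dkc1 and Npm3 were not analysed here. The members comprised 5 genes of the RNA polymerase I machinery, 7 of the small nucleolar ribonucleoproteins (snoRNPs) and 9 of small-subunit assembly. A further 15 belong to large-subunit assembly, and 4 encode other nucleolar proteins. All 40 members were set beside Myc and Mycn. The list was drawn up by name and function, with no measured value in its rule.

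RNA was measured in 11 samples of JB6, a mouse skin cell line used to study transformation, each on its own Affymetrix array. RT101 is a tumorigenic JB6 variant that received no treatment, and it was sampled as colonies from soft agar (3 arrays) and as a monolayer (2 arrays). The parental clone 41-5A was given basic fibroblast growth factor (bFGF) at 10 ng/ml in agar and was likewise sampled as colonies (3 arrays) and as a bFGF-treated monolayer (3 arrays) for which no dose or time is stated; these groups are called bFGF-JB6. Colonies were collected on day 7, and growth in soft agar, without attachment, is the property the study examined, asking which changes are shared between its reversible form under bFGF and its permanent form in RT101. Line and treatment go together in this design and cannot be told apart, each line stands for 1 clone or variant, and the labels do not say whether arrays came from separate cultures, so p-values measure only the spread between these samples. In bulk RNA, fewer cells of a kind and less RNA per cell cannot be told apart.

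Ribosomes begin in the nucleolus, where RNA polymerase I makes a long precursor RNA. Box C/D and box H/ACA snoRNPs then guide its methylation and pseudouridylation, the U3 snoRNP and the small-subunit processome cut and fold the part that becomes the small subunit, and a separate chain of helicases, GTPases and scaffold proteins builds the large subunit. The transcription factor Myc, which binds the E-box CACGTG with its partner Max, is known as an activator of many of these genes, and demand for ribosomes is usually high in dividing cells.

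Because Myc's classical site is a short word in DNA, the promoters of the members were searched for it. RefSeq promoter windows (assembly GRCm38.p6, 250 bases before to 50 bases after a gene's start, 300 in all) were matched by symbol for 35 of the 42 listed genes, as 38 windows. CACGTG, which reads the same on both strands, occurred in 7 of the 35 genes, which is 20.0%, against 10.8% of 9887 measured genes with a window and 8.09% of all 27025 genes in the table. The windows of the members had a median GC content of 58.7% and that of measured genes was 59%, and they held a median of 22.5 CpG pairs against 17. A match is a description of the letters and not a measured binding site. The 7 matches follow, each with up to 40 bases of flank inside its window, 5′ to 3′ on the gene's strand, and with the motif in capitals.
Imp4: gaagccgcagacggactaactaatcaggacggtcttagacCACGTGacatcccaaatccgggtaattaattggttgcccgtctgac
Mybbp1a: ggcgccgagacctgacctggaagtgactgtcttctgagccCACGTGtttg
Nop2: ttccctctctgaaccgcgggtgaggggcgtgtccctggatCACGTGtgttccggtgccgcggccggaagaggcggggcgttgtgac
Pes1: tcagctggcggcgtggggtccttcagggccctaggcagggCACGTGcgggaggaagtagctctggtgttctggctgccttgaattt
Utp18: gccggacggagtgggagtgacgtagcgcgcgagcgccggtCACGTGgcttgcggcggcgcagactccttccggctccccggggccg
Utp20: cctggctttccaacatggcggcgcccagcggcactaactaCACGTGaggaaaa
Wdr43: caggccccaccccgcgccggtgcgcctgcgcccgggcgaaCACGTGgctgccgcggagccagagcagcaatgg
In this order the stretches lie at chr1:34439668-34439753 (plus strand), chr11:72441327-72441376 (plus), chr6:125131783-125131868 (plus), chr11:3963937-3964022 (plus), chr11:93885741-93885826 (minus), chr10:88826765-88826817 (minus) and chr17:71616192-71616264 (plus). The motif lies upstream of the annotated start in Imp4, Nop2 and Utp18, and in the first transcribed bases of Mybbp1a, Pes1, Utp20 and Wdr43, so 4 of the 7 are downstream of the start. Tcof1, Npm1, Rrp12, Bop1, Fbl, Rrs1 and Gnl2 had no window in the table and were not searched.

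All values are log2 signals from the authors' robust multi-array average (RMA), so a difference of 1 is a factor of 2. Each gene was read from its brightest probe set, and a gene was called where limma's moderated test, fitted to all 12393 genes on all 11 arrays, gave a Benjamini-Hochberg adjusted p under 0.05. The arrays were alike in brightness, with medians between 5.82 and 5.95. Arrays of 1 group correlated at 0.989 to 0.998 and arrays of different groups at 0.935 to 0.983. A bFGF-JB6 colony array (replicate 3) and a bFGF-JB6 monolayer array (replicate 1) had a Gapdh 3′ signal above the 5′ signal by 0.35 and 0.19, against -0.08 to -0.01 on the other 9. The skin label was checked against 12 keratinocyte markers: Krt14 had group means of 3.78 in RT101 colonies and 3.61 in bFGF-JB6 monolayers and Cdh1 had 2.39 in both, near the lower quartile of an array (3.78 to 3.91), and none of the 12 was called in either colony comparison. Markers of other cell types moved in the same comparisons as the members. Of 8 fibroblast genes, 5 were called higher in RT101 colonies (Pdgfrb 3.07, Col3a1 2.84, Pdgfra 1.2, Col1a1 0.69 and S100a4 0.66), and their mean signal was 10.27 to 10.31 in RT101 colonies, against 9.19 to 9.26 in RT101 monolayers. In bFGF-JB6 colonies 4 were called higher (Col1a1 0.59, Col3a1 0.46, Col1a2 0.41 and Pdgfrb 0.35) and Vim was called lower (-0.29), with a mean of 9.75 to 9.90, against 9.61 to 9.73 in bFGF-JB6 monolayers. Of 7 macrophage genes, Cd14 (0.33) and Lyz2 (0.62) were called higher in RT101 colonies, with a mean of 4.28 to 4.39, against 4.23 to 4.26 in RT101 monolayers. Cd68 (1.86), Csf1r (0.92) and Lyz2 (0.36) were called higher in bFGF-JB6 colonies, with a mean of 5.11 to 5.28, against 4.69 to 4.79 in bFGF-JB6 monolayers. Ptprc, Adgre1 and Itgam had group means between 2.34 and 3.31 in all 4 groups. Between RT101 and bFGF-JB6 colonies, 3 of the 7 macrophage genes were called lower in RT101 and 1 higher, with differences from -4.77 to 1.11. These shares are 42.9% and 14.3%, against 20.7% and 22.7% of all genes. Cd68 differed by -4.77 and Csf1r by -1.16. The mean of 4 melanocyte genes was 4.77 to 4.93 in bFGF-JB6 colonies, against 4.50 to 4.64 in bFGF-JB6 monolayers, with 1 called higher. In RT101 colonies it was 4.25 to 4.48, against 4.36 to 4.45 in RT101 monolayers, with 1 called lower. None of 4 endothelial genes was called in either colony comparison. The part of these genes in the members' changes was not tested.

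The members' signals were highest in RT101 monolayers and fell in colonies of both lines, by much more in RT101. The mean of the 40 members was 8.52, 8.48 and 8.43 on the RT101 colony arrays, against 9.30 and 9.36 on the RT101 monolayer arrays. It was 8.19, 8.11 and 8.13 on the bFGF-JB6 colony arrays, against 8.44, 8.34 and 8.40 on the bFGF-JB6 monolayer arrays. The 2 RT101 monolayer arrays stand apart from the other 9, which lie within a narrow band. Both of these arrays were above all the other 9 in 37 of the 40 members, and the RT101 monolayer had the highest group mean in 38. The bFGF-JB6 colonies had the lowest group mean in 30 members, RT101 colonies in 7 and the bFGF-JB6 monolayer in 3. These counts of arrays and group means were not made over all genes, so they describe the members without a background.

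**Figure D1:**
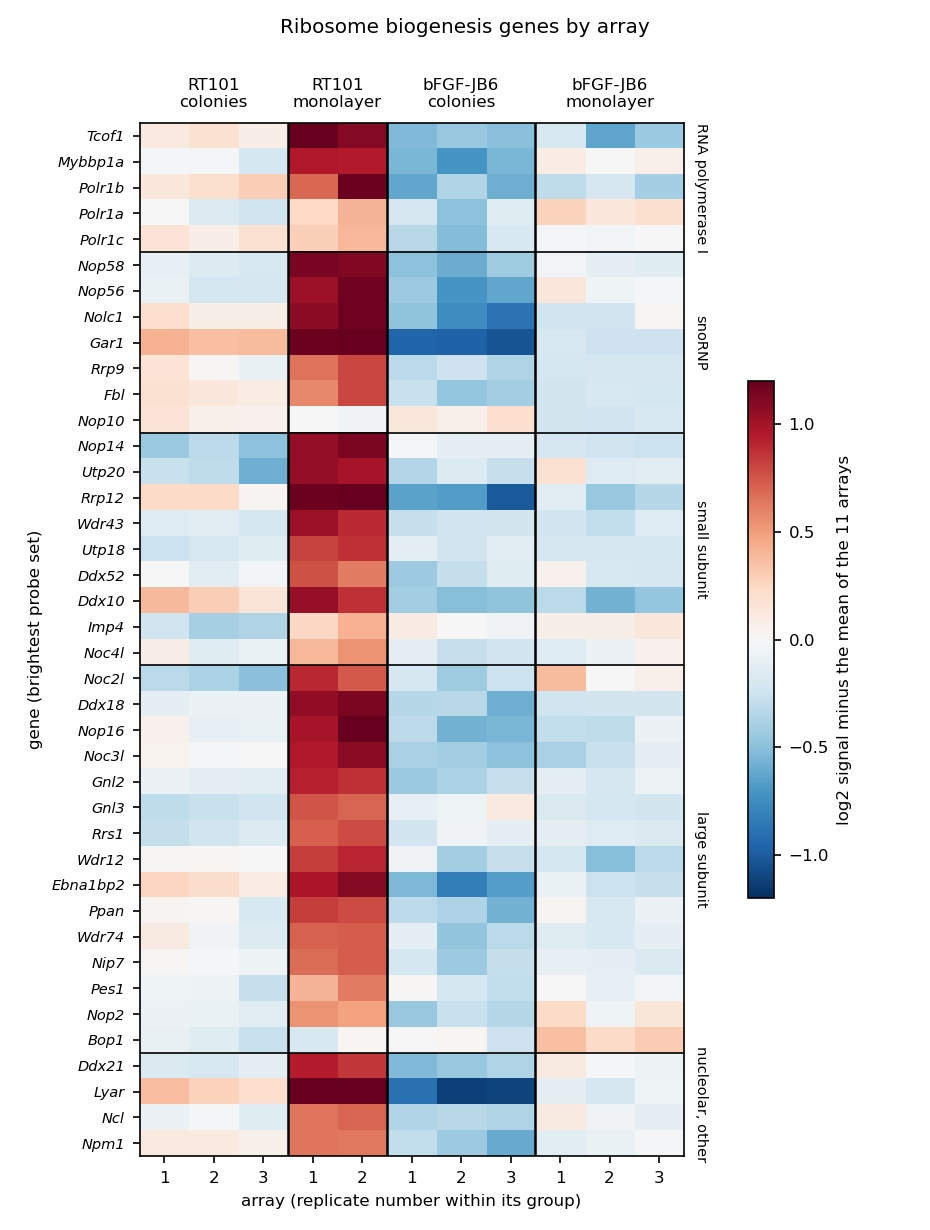
Signal of each of the 40 members (rows, by role) on each of the 11 arrays (columns, by group), as log2 signal minus the gene's mean over all arrays; colours stop at 1.2 above or below. The 2 RT101 monolayer columns are the highest in nearly every row, and the bFGF-JB6 colony columns hold most of the lowest values.

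In RT101 colonies 37 of the 40 members were called lower than in RT101 monolayers and none was called higher, with a median log2 change of -0.86. Among all genes 15.4% were called lower and 17% higher, and the median change was -0.01. Of the members, 17 fell by at least 2-fold, against 2.37% of all genes. The members are bright genes (all 40 lie above the median gene), and among the 6197 genes at or above the median level 24.7% were called lower. All 3 colony arrays lay below both monolayer arrays in 38 members. The share of all genes separated in this way was not computed, so this count has no background. The count of members lower stayed between 36 and 37 when each array was left out in turn. Leaving out RT101 monolayer replicate 2 ended the call of Polr1a (-0.37, limma adjusted p = 0.0916).

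In bFGF-JB6 colonies 18 of the 40 members were called lower than in bFGF-JB6 monolayers and 1 was called higher, with a median change of -0.22 and no change of 2-fold. Among all genes 15.3% were called lower and 14.1% higher, with a median change of 0.03, and 24.9% of the genes at or above the median level were called lower. All 3 colony arrays lay below all 3 monolayer arrays in 24 members, a count that was likewise not made over all genes. The 2 colony comparisons contrast different arrays, but both tests take their variance from 1 fit to all arrays, so their calls are not independent. Of the members, 16 were called lower in both, 21 in RT101 alone, 2 (Bop1 and Polr1c) in bFGF-JB6 alone and 1 (Nop10) in neither. This overlap was not counted over all genes, so it has no background. The difference between the changes was tested itself: the change was called more negative in RT101 in 28 members and more positive in none, with a median difference of -0.59, against 12.7% of all genes with a more negative change in RT101 and 15% with a more positive one. Of the 18 calls in bFGF-JB6 colonies, 4 were lost when some single array was left out: Gnl2, Polr1c, Ppan and Rrp12. Ppan lost it without bFGF-JB6 colony replicate 3 (-0.26, limma adjusted p = 0.0538) or bFGF-JB6 monolayer replicate 1 (-0.29, limma adjusted p = 0.0691). Gnl2 lost it without bFGF-JB6 colony replicate 1 or 2 (-0.20 and -0.24), bFGF-JB6 monolayer replicate 1 or 3 (-0.24 and -0.21), or RT101 colony replicate 2 or 3 (-0.24 each), at limma adjusted p-values between 0.051 and 0.129. Bop1, Ppan and Rrp12 were also not called without the 2 arrays of raised Gapdh 3′ signal (-0.26, -0.21 and -0.26).

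**Figure D2:**
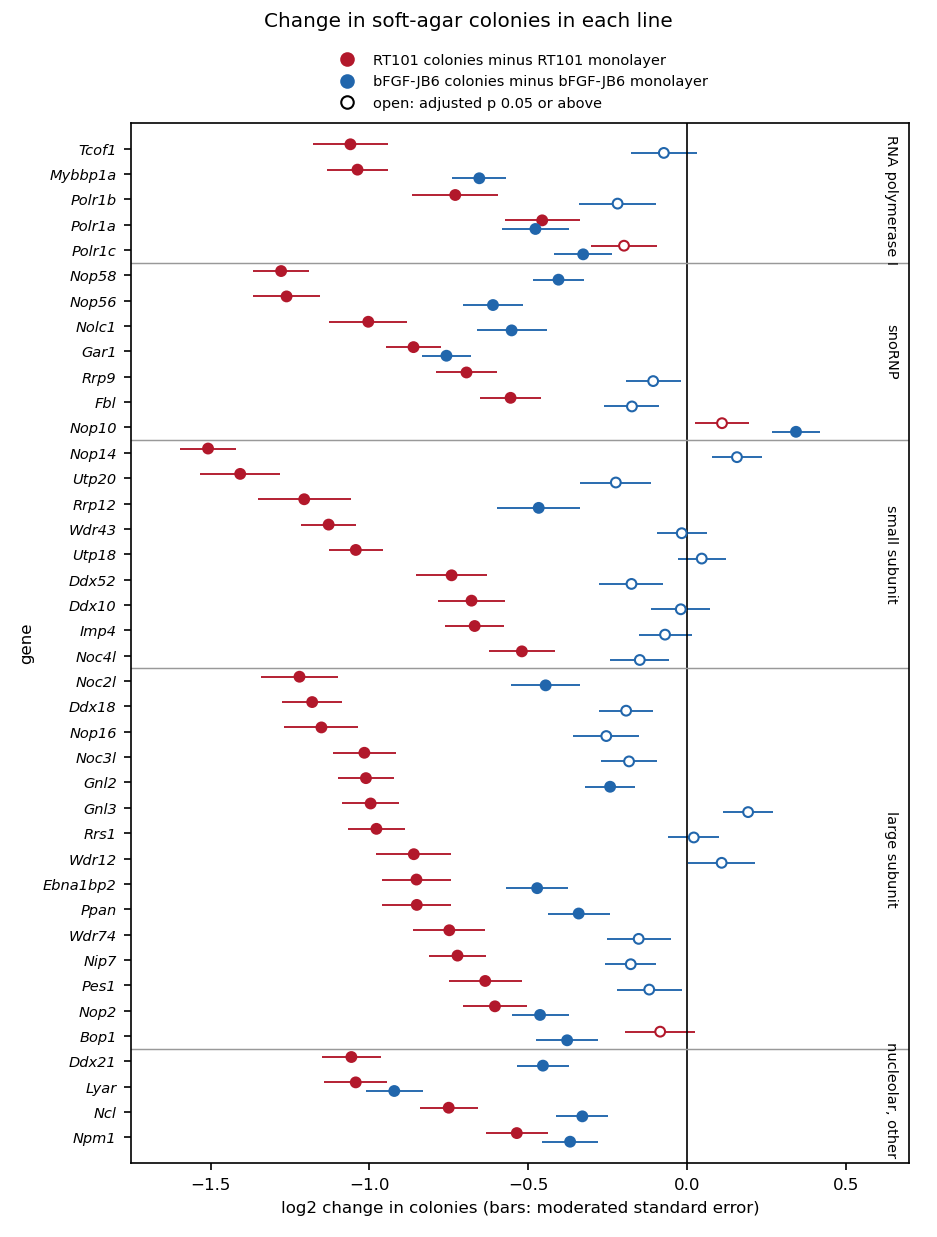
Log2 change in colonies against monolayer for each member, with RT101 in red and bFGF-JB6 in blue; bars are the moderated standard error and open points were not called. Red points lie left of blue ones for 37 of the 40 members, and the red values run to -1.51 while no blue value passes -0.92.

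All 9 small-subunit genes fell in RT101 colonies, with a median of -1.04. By the brightest probe sets, Rrp12 alone of them was called in bFGF-JB6 colonies, where the median was -0.07. The median difference between the changes was -0.74, against -0.77 for the 15 large-subunit genes. Nop14, a core component of the small-subunit processome, was at 7.60, 7.72 and 7.55 in RT101 colonies, against 9.09 and 9.17 in RT101 monolayers. In bFGF-JB6 colonies it was at 8.02, 7.93 and 7.93, against 7.83, 7.80 and 7.78 in bFGF-JB6 monolayers. The RT101 groups are far apart, while every bFGF-JB6 colony array is slightly above the monolayer arrays. Nop14 fell by 1.51 in RT101 colonies (SE 0.09, limma adjusted p = 2.62e-08), a 2.84-fold difference and the largest fall of any member. It differed by 0.16 in bFGF-JB6 colonies (SE 0.08, limma adjusted p = 0.164), and the difference between the changes was -1.67 (SE 0.12, limma adjusted p = 2.36e-07).

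Utp20, a very large scaffold protein of the processome, was at 7.43, 7.40 and 7.12 in RT101 colonies, against 8.76 and 8.69 in RT101 monolayers. It was at 7.35, 7.54 and 7.42 in bFGF-JB6 colonies, against 7.88, 7.54 and 7.56 in bFGF-JB6 monolayers. The fall was 1.41 in RT101 (SE 0.13, limma adjusted p = 1.29e-06), and the bFGF-JB6 groups meet near 7.54 (-0.22, SE 0.11, limma adjusted p = 0.162). Rrp12, a factor for late maturation and export of small-subunit precursors, fell in both, to 6.76, 6.76 and 6.56 in RT101 colonies, against 7.70 and 8.10 in RT101 monolayers, and to 5.88, 5.86 and 5.52 in bFGF-JB6 colonies, against 6.41, 6.08 and 6.19 in bFGF-JB6 monolayers. Its bFGF-JB6 call (-0.47, limma adjusted p = 0.0148) was lost without bFGF-JB6 colony replicate 3 (-0.35, limma adjusted p = 0.055) or bFGF-JB6 monolayer replicate 1 (-0.38, limma adjusted p = 0.0702).

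The processome genes Wdr43 and Utp18 fell by 1.13 and 1.04 in RT101 colonies. They changed by -0.02 and 0.05 in bFGF-JB6 colonies, where neither was called. Wdr43 spanned 8.50 to 8.58 in RT101 colonies, against 9.61 to 9.74 in RT101 monolayers. It spanned 8.44 to 8.49 in bFGF-JB6 colonies, against 8.42 to 8.56 in bFGF-JB6 monolayers, so these groups overlap. The helicase genes Ddx52 and Ddx10 fell by 0.74 and 0.68 in RT101, and their bFGF-JB6 changes were -0.17 and -0.02, uncalled. A second Ddx52 probe set, about as bright, showed no called change in RT101 colonies (-0.09, limma adjusted p = 0.66 over all probe sets). The difference between its changes was not called either (-0.14, limma adjusted p = 0.602 over all probe sets). The fall of Ddx52 thus rests on 1 of its 2 probe sets. Ddx10 spanned 7.33 to 7.56 in RT101 colonies, against 8.05 to 8.22 in RT101 monolayers. In bFGF-JB6 it spanned 6.66 to 6.76 in colonies, against 6.61 to 6.85 in monolayers, and again these overlap. Imp4, a partner of the U3 snoRNP, fell by 0.67 in RT101 colonies and Noc4l, the counterpart of a yeast protein that binds Nop14, by 0.52. The bFGF-JB6 changes of these genes were -0.07 and -0.15, uncalled. Of the 9 genes, Noc4l alone had no called difference between its changes (-0.37, limma adjusted p = 0.0634), although a second Noc4l probe set had one (-0.59, limma adjusted p = 0.00279 over all probe sets). The dimmest Noc4l probe set was called lower in bFGF-JB6 colonies (-0.68, limma adjusted p = 0.00124 over all probe sets). The difference between its changes was not called (-0.20, limma adjusted p = 0.508 over all probe sets). The behaviour of Noc4l in bFGF-JB6 thus depends on the probe set.

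Large-subunit factors fell in RT101 colonies in 14 of 15 cases and in bFGF-JB6 colonies in 6 of 15. The difference between the changes was called in 12 of the 15. The PeBoW complex, a trimer of Pes1, Bop1 and Wdr12 that is needed to process the large-subunit RNA, did not move as one. Pes1 fell by 0.64 and Wdr12 by 0.86 in RT101 colonies (limma adjusted p = 0.000651 and 6.5e-05), and their changes in bFGF-JB6 colonies were -0.12 and 0.11 (limma adjusted p = 0.444 and 0.502). The other, dimmer Pes1 probe set fell by 0.25 in RT101 colonies and rose by 0.46 in bFGF-JB6 colonies (limma adjusted p = 0.0465 and 0.00087 over all probe sets), so the behaviour of Pes1 in bFGF-JB6 depends on the probe set. Bop1 had the opposite pattern. It was at 8.88, 8.83 and 8.70 in RT101 colonies, against 8.78 and 9.0 in RT101 monolayers (-0.08, SE 0.11, limma adjusted p = 0.64). It was at 8.97, 8.99 and 8.72 in bFGF-JB6 colonies, against 9.33, 9.20 and 9.28 in bFGF-JB6 monolayers (-0.38, SE 0.10, limma adjusted p = 0.00985). The RT101 arrays of Bop1 interleave, whereas the bFGF-JB6 colonies all lie below their monolayers; the difference between its changes was not called (0.29, limma adjusted p = 0.171).

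Gnl3 (nucleostemin), a nucleolar GTPase gene known from stem and tumour cells, was at 9.44, 9.47 and 9.49 in RT101 colonies, against 10.49 and 10.44 in RT101 monolayers. In bFGF-JB6 colonies it was at 9.64, 9.68 and 9.85, against 9.56, 9.52 and 9.52 in bFGF-JB6 monolayers. It fell by 1.0 in RT101 (limma adjusted p = 1.4e-06), while its bFGF-JB6 difference of 0.19, with all colony arrays above the monolayer arrays, was not called (limma adjusted p = 0.0916). Rrs1, which helps to bring the 5S RNA into the large subunit, was between 8.69 and 8.81 in RT101 colonies, against 9.69 and 9.76 in RT101 monolayers. It was between 8.74 and 8.93 in bFGF-JB6 colonies, against 8.80 to 8.86 in bFGF-JB6 monolayers, and these overlap.

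The other large-subunit genes that fell in RT101 colonies without a call in bFGF-JB6 colonies were the helicase gene Ddx18 (-1.18), Nop16 (-1.15), Noc3l (-1.02), Wdr74 (-0.75) and Nip7 (-0.72). Their bFGF-JB6 changes ran between -0.25 (Nop16) and -0.15 (Wdr74). The genes called lower in both were Noc2l (RT101 -1.22, bFGF-JB6 -0.45), the GTPase gene Gnl2 (-1.01 and -0.24), Ppan (-0.85 and -0.34), Ebna1bp2 (-0.85 and -0.47) and the RNA methyltransferase gene Nop2 (-0.60 and -0.46). Nop2 and Ebna1bp2 had no called difference between their changes (-0.14 and -0.38, limma adjusted p = 0.502 and 0.0711).

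Among the 7 snoRNP genes, 6 fell in RT101 colonies and 4 in bFGF-JB6 colonies. Nop58 and Nop56 are core proteins of box C/D snoRNPs, as is fibrillarin (Fbl), the methyltransferase. Nop58 was at 8.93, 8.87 and 8.83 in RT101 colonies, against 10.17 and 10.14 in RT101 monolayers. It was at 8.54, 8.43 and 8.60 in bFGF-JB6 colonies, against 8.99, 8.91 and 8.89 in bFGF-JB6 monolayers. Neither pair of groups overlaps: the fall was 1.28 in RT101 (SE 0.09, limma adjusted p = 1.24e-07) and 0.40 in bFGF-JB6 (SE 0.08, limma adjusted p = 0.00146). Nop56 fell by 1.26 and 0.61 in the same comparisons, and Fbl fell by 0.56 in RT101 but was not called in bFGF-JB6 colonies (-0.17, limma adjusted p = 0.162).

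Gar1 and Nop10 belong to box H/ACA snoRNPs, which carry out pseudouridylation, and they behaved differently from each other. Gar1 was at 8.96, 8.91 and 8.92 in RT101 colonies, against 9.71 and 9.87 in RT101 monolayers. It was at 7.58, 7.57 and 7.51 in bFGF-JB6 colonies, against 8.35, 8.29 and 8.29 in bFGF-JB6 monolayers. The falls of 0.86 in RT101 and 0.76 in bFGF-JB6 (limma adjusted p = 3.52e-06 and 5.82e-06) were of like size, and their difference was not called (-0.10, SE 0.11, limma adjusted p = 0.575). Nop10 was the member that rose in bFGF-JB6 colonies, to 11.01, 10.93 and 11.07, against 10.65, 10.64 and 10.69 in bFGF-JB6 monolayers (0.34, SE 0.08, limma adjusted p = 0.00384). It was at 11.04, 10.93 and 10.92 in RT101 colonies, against 10.87 and 10.83 in RT101 monolayers (0.11, SE 0.09, limma adjusted p = 0.393). Its second probe set gave 0.33 and 0.20 in the bFGF-JB6 and RT101 comparisons. Nolc1, a chaperone of snoRNPs, fell by 1.0 in RT101 and 0.55 in bFGF-JB6 colonies. Averaging its probe sets ended the bFGF-JB6 call (-0.25, limma adjusted p = 0.104). The U3 protein gene Rrp9 fell by 0.69 in RT101 and was not called in bFGF-JB6 (-0.11, limma adjusted p = 0.414).

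The RNA polymerase I group fell in 4 of 5 cases in RT101 colonies and in 3 of 5 in bFGF-JB6 colonies. Polr1a and Polr1b encode the largest subunits of the enzyme. Polr1a fell by about as much in both lines, -0.46 in RT101 and -0.48 in bFGF-JB6 (limma adjusted p = 0.00811 and 0.00343). Polr1b fell by 0.73 in RT101 (limma adjusted p = 0.000819), and its bFGF-JB6 change of -0.22 was not called (limma adjusted p = 0.211). Polr1c, a subunit that RNA polymerases I and III share, was at 9.21, 9.13 and 9.23 in RT101 colonies, against 9.34 and 9.45 in RT101 monolayers (-0.20, SE 0.10, limma adjusted p = 0.175). It was at 8.72, 8.53 and 8.87 in bFGF-JB6 colonies, against 9.03, 9.02 and 9.05 in bFGF-JB6 monolayers (-0.33, SE 0.09, limma adjusted p = 0.0152). Polr1c is lower on every colony array of either line, and its bFGF-JB6 call was lost without bFGF-JB6 colony replicate 2 (-0.24, limma adjusted p = 0.0649) or bFGF-JB6 monolayer replicate 3 (-0.32, limma adjusted p = 0.0509).

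Tcof1 encodes treacle, a nucleolar cofactor of ribosomal RNA transcription. It fell by 1.06 in RT101 colonies (limma adjusted p = 9.74e-06) and was not called in bFGF-JB6 colonies (-0.07, limma adjusted p = 0.666). Mybbp1a, a nucleolar Myb-binding protein gene, was at 9.68, 9.67 and 9.48 in RT101 colonies, against 10.65 and 10.64 in RT101 monolayers. It was at 9.14, 8.99 and 9.14 in bFGF-JB6 colonies, against 9.79, 9.70 and 9.75 in bFGF-JB6 monolayers. It fell in both (-1.04 in RT101 and -0.65 in bFGF-JB6, limma adjusted p = 1.61e-06 and 5.41e-05), with no overlap between the groups.

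The genes of the 4 other nucleolar proteins fell in both lines. Lyar, a nucleolar zinc-finger protein gene, was at 8.49, 8.39 and 8.32 in RT101 colonies, against 9.40 and 9.48 in RT101 monolayers. It was at 7.22, 6.99 and 7.00 in bFGF-JB6 colonies, against 8.0, 7.91 and 8.07 in bFGF-JB6 monolayers. Its fall of 0.92 (SE 0.09, limma adjusted p = 3.97e-06) was the largest of any member in bFGF-JB6 colonies, and in RT101 it was 1.04 (SE 0.10, limma adjusted p = 2.48e-06). The RNA helicase gene Ddx21 fell by 1.06 in RT101 and 0.45 in bFGF-JB6 colonies, nucleolin (Ncl) by 0.75 and 0.33, and nucleophosmin (Npm1), a chaperone of the nucleolus, by 0.54 and 0.37. The dimmer Ncl probe sets changed by -0.78, -0.73 and -1.22 in RT101 colonies, and by -0.65, -0.68 and -0.91 in bFGF-JB6 colonies. None of them had a called difference between its changes (limma adjusted p = 0.77, 0.853 and 0.489 over all probe sets). The size of the Ncl fall in bFGF-JB6 thus depends on the probe set.

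Monolayers of the lines differed more than their colonies. In RT101 monolayers 37 members were higher than in bFGF-JB6 monolayers and 1 was lower, with a median difference of 0.93, against 23.2% of all genes higher and 21.2% lower and a median of 0.05. This comparison uses the same 2 RT101 monolayer arrays as the RT101 colony comparison, so these sets of values are not independent. Of the members 19 were at least 2-fold higher, against 5.33% of all genes. The largest difference was that of Rrp12, 3.20-fold (1.68, limma adjusted p = 4.62e-07), followed by Tcof1 (1.61), Gar1 (1.48), Lyar (1.45) and Ddx10 (1.41). Bop1 was the member that was lower in RT101 monolayers (-0.38, limma adjusted p = 0.0105), a call that was lost without RT101 monolayer replicate 1 (-0.28, limma adjusted p = 0.141). The calls of Imp4 (0.24) and Polr1c (0.36) in this comparison were also lost on leaving out some single array.

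In RT101 colonies 25 members were higher than in bFGF-JB6 colonies and 3 were lower, with a median difference of 0.29, against 22.7% of all genes higher and 20.7% lower and a median of 0.00. The largest differences were those of Gar1 (1.38, limma adjusted p = 5.63e-09) and Lyar (1.33, limma adjusted p = 3.78e-08). Gar1 and Lyar, with their like falls in both lines, thus kept a similar gap between the lines in monolayers and in colonies. The members lower in RT101 colonies were Imp4 (-0.36), Nop14 (-0.34) and Gnl3 (-0.26). The call of Gnl3 was lost without bFGF-JB6 colony replicate 3 (-0.20, limma adjusted p = 0.0509) or RT101 colony replicate 1 (-0.24, limma adjusted p = 0.0592). Among the higher ones Gnl2 (0.26), Nop2 (0.26), Ncl (0.27) and Wdr74 (0.27) also lost their calls on leaving out some single array. RT101 colonies were also set against bFGF-JB6 monolayers, a comparison chosen after the values were seen, which changes line, treatment and growth together. Here 12 members were higher and 5 lower, against 20.3% and 18.6% of all genes, with a median difference of 0.06. Ddx10 (0.73) and Gar1 (0.62) were the most raised and Noc2l (-0.55) and Bop1 (-0.47) the most lowered.

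The median change of the members was negative in both lines, with 39 of the 40 negative in RT101 colonies and 34 in bFGF-JB6 colonies. Myc changed in the direction of these medians and by more. It was at 7.68, 7.44 and 7.48 in RT101 colonies, against 9.45 and 9.79 in RT101 monolayers. It was at 7.03, 6.81 and 6.63 in bFGF-JB6 colonies, against 7.75, 7.84 and 8.06 in bFGF-JB6 monolayers. The groups of neither line overlap. Myc fell by 2.09 in RT101 colonies (SE 0.14, 4.25-fold, limma adjusted p = 1.08e-07) and by 1.06 in bFGF-JB6 colonies (SE 0.13, 2.09-fold, limma adjusted p = 2.68e-05), and the fall was larger in RT101 by 1.03 (limma adjusted p = 0.0011). Its level was higher in RT101 than in bFGF-JB6 in monolayers (1.74, limma adjusted p = 2.45e-07) and in colonies (0.71, limma adjusted p = 0.000354).

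The order of Myc's group means was RT101 monolayer, bFGF-JB6 monolayer, RT101 colonies, bFGF-JB6 colonies. This order held for 8 of the 40 members. In 22 members RT101 colonies lay above bFGF-JB6 monolayers and the other positions were the same. Neither order was counted over all genes, so these counts cannot show how far the members are like Myc. Myc was lower in RT101 colonies than in bFGF-JB6 monolayers (-0.35, limma adjusted p = 0.0439), whereas the members averaged 8.48 ± 0.05 in the 3 RT101 colony samples and 8.40 ± 0.05 in the 3 bFGF-JB6 monolayer samples (SD over arrays). No correlation across arrays is given, since the arrays fall into 4 groups of 2 or 3.

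**Figure D3:**
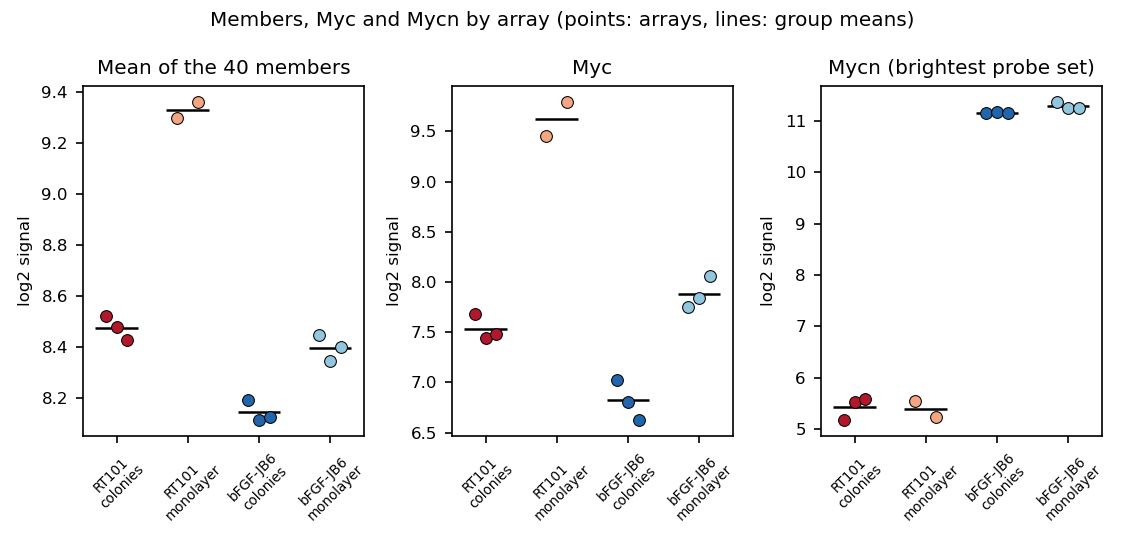
Mean log2 signal of the 40 members, and log2 signals of Myc and of the brightest Mycn probe set, on each array (points) with group means (lines); the vertical axes differ and do not start at 0. Members and Myc are highest in RT101 monolayers and lowest in bFGF-JB6 colonies, while Mycn separates the lines and not the growth conditions.

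Mycn, the paralogue of Myc, separated the lines. Its brightest probe set was at 5.19, 5.53 and 5.59 in RT101 colonies and 5.55 and 5.24 in RT101 monolayers, against 11.15, 11.16 and 11.15 in bFGF-JB6 colonies and 11.36, 11.25 and 11.24 in bFGF-JB6 monolayers. It was lower in RT101 in monolayers (log2 -5.89, limma adjusted p = 3.55e-13) and in colonies (log2 -5.72), and neither colony comparison was called (0.04 in RT101 and -0.13 in bFGF-JB6, limma adjusted p = 0.862 and 0.447). The other 2 probe sets of Mycn did not show this. They were dim on all 11 arrays, at 3.90 to 4.37 and at 3.12 to 3.52, so the level of Mycn is uncertain here.

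Of 13 measured genes of the Myc network, which are Myc proteins, their partners and their antagonists, 3 fell and 2 rose in RT101 colonies (23.1% and 15.4%, against 15.4% and 17% of all genes), which is near the background. In bFGF-JB6 colonies 5 fell and 1 rose (38.5% and 7.69%, against 15.3% and 14.1%). Mxd4, an antagonist that competes for Max, rose by 1.38 in RT101 colonies (limma adjusted p = 2.39e-05). It was not called in bFGF-JB6 colonies (-0.42, limma adjusted p = 0.0548), and the difference between its changes was 1.80. Mxi1, another antagonist, rose by 0.42 and Mlxip fell by 0.57 in RT101 colonies. In bFGF-JB6 colonies Max rose by 0.31 and Mxd3 fell by 0.75.

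The 7 measured members with CACGTG in their window and the 26 with a window that lacks it had overlapping changes. In RT101 colonies the median change was -1.04 with the motif (range -1.41 to -0.60) and -0.86 without it (-1.51 to 0.11). In bFGF-JB6 colonies it was -0.12 with the motif (-0.65 to 0.05) and -0.24 without it (-0.92 to 0.34). Nop14, which fell most in RT101, has no CACGTG in its window, and Utp20, the next, has one.

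Other genes of the same pathway, none of them a member, were read from lists fixed by function. In RT101 colonies 30 of 39 small-subunit processome genes and 32 of 42 large-subunit assembly genes were called lower, and 2 of each were called higher, with median changes of -0.51 and -0.58. The lower shares are 76.9% and 76.2%, against 15.4% of all genes and 24.7% of genes at or above the median level. In bFGF-JB6 colonies 15 and 16 were called lower and 1 of each higher. There the lower shares are 38.5% and 38.1%, against 15.3% of all genes and 24.9% of genes at or above the median level. The largest falls in RT101 colonies were those of the processome genes Esf1 (-1.70) and Heatr1 (-1.58), and of Rrp1b (-1.29) and Sdad1 (-1.18) in the large-subunit list. Those that rose were Ddx49 (0.46), Rrp36 (0.34), Nol12 (0.36) and Nop53 (0.32). In bFGF-JB6 colonies Wdr36 (-1.08), Bysl (-0.66), Ddx24 (-0.82) and Nifk (-0.59) fell most, and Dcaf13 (0.28) and Zfp622 (0.46) rose.

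Of 10 snoRNP assembly genes 6 fell in RT101 colonies and 7 in bFGF-JB6 colonies (60% and 70%, against 15.4% and 15.3% of all genes). Ruvbl2, an ATPase of the snoRNP assembly machinery, fell in both (-1.11 in RT101 and -0.62 in bFGF-JB6), Nhp2 fell by 0.87 in RT101, Rpap3 fell by 0.50 in bFGF-JB6 and Naf1 rose there by 0.37. The RNA exosome, which trims and degrades precursor RNA, had 8 of 13 genes lower in RT101 colonies and 5 of 13 in bFGF-JB6 colonies. These shares are 61.5% and 38.5%, against the same 15.4% and 15.3%. Its nuclease gene Dis3 was at -1.24 and -0.85, Exosc9 at -0.80 in RT101 and Exosc7 at -0.61 in bFGF-JB6. Of 13 RNA polymerase I and ribosomal DNA factors 6 fell in RT101 colonies (against 15.4% of all genes) and 3 in bFGF-JB6 colonies, which is 23.1% and near the 15.3% of all genes and 24.9% of bright genes. Polr1e fell in both (-0.76 and -0.47), Taf1b by 1.13 in RT101 and Polr2e, a subunit common to several polymerases, by 0.48 in bFGF-JB6.

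The genes of the proteins that make up the finished ribosome were mostly not called in RT101 colonies. Of 43 measured cytosolic ribosomal protein genes, 2 were called lower and 3 higher in RT101 colonies, with a median change of -0.04, and 10 were called lower in bFGF-JB6 colonies, with a median of -0.13. Those lower in RT101 colonies were Rpl12 (-1.31) and Rps25 (-0.92), and Rpl39 (0.49) and Rpl37a (0.29) were among the higher. Rps25 (-0.80) and Rps19 (-0.48) fell most in bFGF-JB6 colonies. In RT101 colonies 4.65% were lower and 6.98% higher, against 15.4% and 17% of all genes. In bFGF-JB6 colonies the lower share was 23.3%, against 15.3% of all genes and 24.9% of genes at or above the median level. Between monolayers, 21 of the 43 were higher in RT101 and 2 lower (48.8% and 4.65%, against 23.2% and 21.2% of all genes), with a median difference of 0.23. Between colonies, 27 were higher in RT101 and 1 lower (62.8% and 2.33%, against 22.7% and 20.7%), with a median difference of 0.26, while 25 of the 40 members were higher there, with a median of 0.29. Ribosomal protein genes have many near-identical pseudogenes, and their probe sets are uncertain for that reason.

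**Figure D4:**
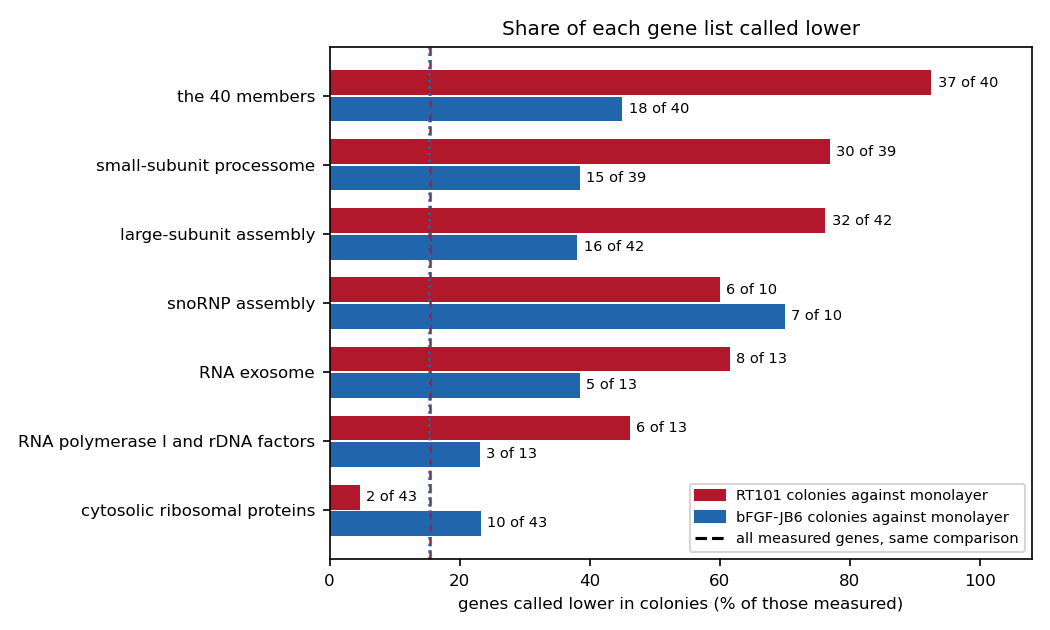
Percent of the measured genes of each list called lower in colonies, RT101 in red above bFGF-JB6 in blue, with counts beside the bars; the vertical lines mark all 12393 genes (15.4% for RT101, 15.3% for bFGF-JB6). Assembly factor lists lie well to the right of the lines in RT101, and cytosolic ribosomal proteins (2 of 43) to the left.

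Of the 40 members, 23 had more than 1 probe set. Over all 71 probe sets, 60 were called lower and none higher in RT101 colonies, against 14.7% and 14.9% of the 20380 single-gene probe sets. In bFGF-JB6 colonies 29 were called lower and 6 higher, against 13.9% and 12.9%. The 31 probe sets that were not the brightest of their gene had median changes of -0.73 in RT101 and -0.23 in bFGF-JB6 colonies. Those called higher in bFGF-JB6 colonies belonged to Ddx18 (1.0), Gnl2 (0.67), Pes1 (0.46), Nolc1 (0.33) and Nop10 (0.33). Of members called lower in RT101 colonies, Ddx52, Ddx18, Ebna1bp2, Imp4, Nip7 and Polr1a each had a further probe set that was not called there.

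In 4 members, probe sets of 1 gene were called in opposite directions. In bFGF-JB6 colonies this held for Gnl2 and Nolc1. The dimmest Gnl2 probe set was at 5.55, 5.20 and 5.37 in bFGF-JB6 colonies, against 4.72, 4.64 and 4.76 in bFGF-JB6 monolayers (0.67), while the brightest was at 7.12, 7.19 and 7.29 in bFGF-JB6 colonies, against 7.45, 7.37 and 7.51 in bFGF-JB6 monolayers. The dimmest Nolc1 probe set was at 6.96, 6.89 and 6.86 in bFGF-JB6 colonies, against 6.78, 6.46 and 6.48 in bFGF-JB6 monolayers (0.33), while the brightest was at 8.23, 7.97 and 7.83 in bFGF-JB6 colonies, against 8.48, 8.48 and 8.73 in bFGF-JB6 monolayers. In both genes the middle probe set fell, as the brightest did (-0.50 for Gnl2 and -0.52 for Nolc1). Averaging the probe sets of Gnl2 gave -0.02 in bFGF-JB6 colonies (limma adjusted p = 0.869).

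Between the lines the opposed calls also included Ddx18 and Nip7. The dimmest Ddx18 probe set was at 5.24, 5.30 and 4.79 in RT101 colonies, against 7.57, 7.46 and 7.10 in bFGF-JB6 colonies (-2.27, limma adjusted p = 1.12e-07 over all probe sets). The brightest was at 8.52, 8.58 and 8.57 in RT101 colonies, against 8.30, 8.31 and 8.06 in bFGF-JB6 colonies (0.33, limma adjusted p = 0.00744 over all probe sets). The dim probe set of Nip7 gave -0.30 and the bright one 0.28 in the same comparison. In RT101 colonies against RT101 monolayers all probe sets of these 4 genes had lower means in colonies; the dim ones of Ddx18 (-0.43) and Nip7 (-0.22) were not called. Fbl, Gar1 and Nop56 were read from probe sets of the type that can match transcripts of more than 1 gene.

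**Figure D5:**
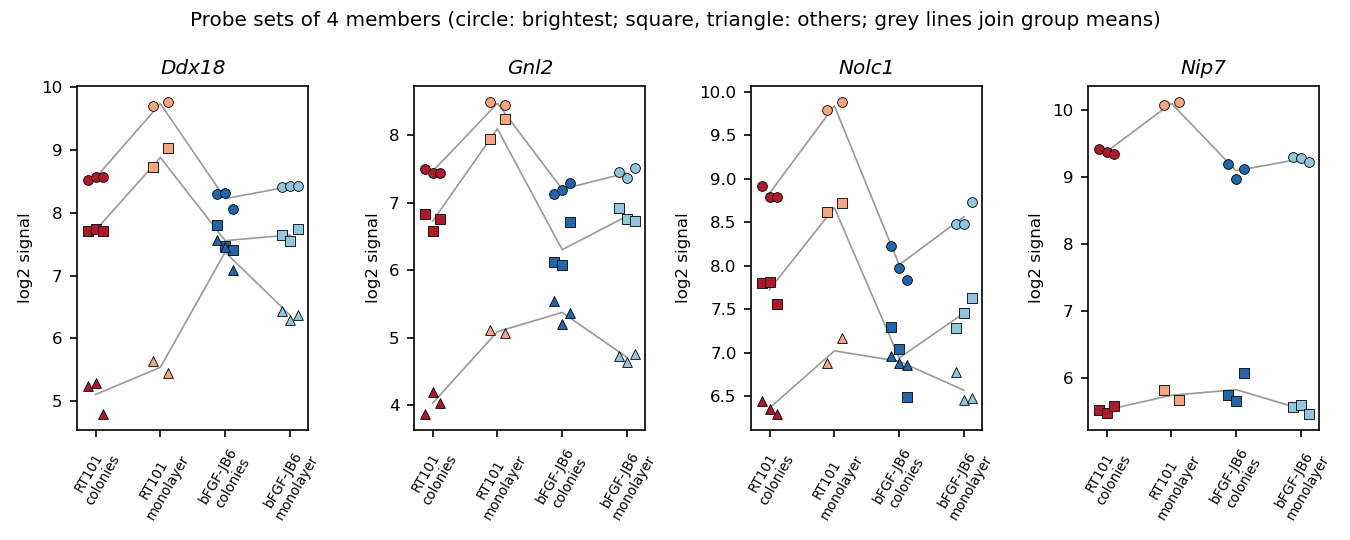
Log2 signals of every probe set of Ddx18, Gnl2, Nolc1 and Nip7 on each array, by group; circles are the brightest probe set and grey lines join group means. The dimmest probe set of each gene is lower in RT101 colonies than in bFGF-JB6 colonies, whereas the brightest is higher.

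The proliferation gene Mki67, named after its values were seen, moved with the members in bFGF-JB6 and against them in RT101. It was at 7.75 to 7.94 in bFGF-JB6 colonies, against 8.67 to 8.98 in bFGF-JB6 monolayers (-0.94, limma adjusted p = 9.1e-06). In RT101 it was at 9.35 to 9.58 in colonies, against 9.06 to 9.10 in monolayers (0.38, limma adjusted p = 0.0172). Its part in the members' changes was not tested.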

How the data were processed

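Total RNA from 11 samples was labelled and hybridised to Affymetrix arrays. The values deposited by the authors are RMA log2 signals, 1 per probe set and array; the submitters' processing notes name the method without a version. RMA corrects background, brings arrays to a common distribution and summarises probes, so a change shared by most genes cannot be seen. Scanner settings: not given in the sources used here. No further scaling or filter was applied. Probe sets were named by the platform annotation: of 22690, 20380 named 1 gene, 691 several and 1555 none, and 64 were controls; 20351 were matched to the RefSeq gene table by gene number. Sequences are from RefSeq, assembly GRCm38.p6.

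The brightest single-gene probe set stood for each gene. limma 3.58.1 in R 4.3.3 fitted group means to all 11 arrays (residual degrees of freedom 7, prior 6.12). The contrasts set colonies against monolayer in each line, their difference, and RT101 against bFGF-JB6 in each condition. P-values were adjusted by Benjamini-Hochberg over 12393 genes and called under 0.05; SE is the moderated standard error. Arrays have no counts, and their number limits the precision. The fit was tested on simulated data. Sample titles gave the groups. Deviations of same-numbered arrays from their group means correlated at -0.25 to 0.08. These values cannot decide whether numbers pair the samples, because deviations within so small a group are tied to each other. With 2 RT101 monolayer arrays the deviations are mirror images, and RT101 colony replicate 2 gave -0.15 by number and 0.15 by letter. The alternatives changed the probe set choice, the level filter, normalization, variance model, weights, arrays in the fit, the replicate block, a 2-fold minimum and each array left out.

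Every measured member was named at least once. Values per array were given for the members with the largest and smallest changes in each colony comparison, those whose probe sets disagree, and Myc and Mycn; from each further list the largest called changes were named. List genes without a single-gene probe set were not analysed here. The members and lists were chosen with earlier results of these data known.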

Additional observations from a re-analysis of the deposited data

Results flagged for a closer look

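The change in colonies differed between the lines, by a test of the difference itself, in 28 members and in Myc (limma, adjusted p under 0.05 over all genes; RT101 change minus bFGF-JB6 change, log2). Small-subunit genes included Nop14 (-1.67), Utp20 (-1.18), Wdr43 (-1.11), Utp18 (-1.09), Rrp12 (-0.74), Ddx10 (-0.66), Imp4 (-0.60) and Ddx52 (-0.57). Large-subunit genes were Gnl3 (-1.19), Rrs1 (-1.0), Ddx18 (-0.99), Wdr12 (-0.97), Nop16 (-0.90), Noc3l (-0.83), Noc2l (-0.78), Gnl2 (-0.77), Wdr74 (-0.60), Nip7 (-0.55), Pes1 (-0.52) and Ppan (-0.51). The snoRNP genes were Nop58 (-0.87), Nop56 (-0.65), Rrp9 (-0.59) and Fbl (-0.38). The remaining members were Tcof1 (-0.99), Ddx21 (-0.60), Ncl (-0.42) and Mybbp1a (-0.38). Myc differed by -1.03. All of these differences are negative, and all rest on the 2 RT101 monolayer arrays as one of the 4 groups. Leaving out single arrays ended the call of 7 members (Ddx52, Fbl, Mybbp1a, Ncl, Pes1, Ppan and Rrp12). Fbl and Mybbp1a lost it on leaving out most of the arrays in turn. They also lost it with a replicate block from the titles (limma adjusted p = 0.0824 and 0.0663). The same held without the 2 arrays of raised Gapdh 3′ signal (limma adjusted p = 0.0557 and 0.0537). Averaging the probe sets of Ncl ended its call (-0.23, limma adjusted p = 0.115). The groups have 3 arrays or fewer, too few to look for single arrays that stand apart.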

How the results depend on the processing

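Over 11 alternatives and 11 fits that each left out 1 array, 4470 values of the members, Myc and Mycn kept direction and side of the threshold, 54 gained a call, 93 lost one and 3 reversed. The count lower in RT101 colonies was 37 under every alternative except the 2-fold minimum (17), and 36 to 37 with an array left out; in bFGF-JB6 colonies it was 15 to 19 (0 at 2-fold) and 15 to 18. The more negative change in RT101 held for 27 to 32 members (5 at 2-fold) and for 23 to 29 with an array left out. Averaging the probe sets of a gene ended the bFGF-JB6 calls of Nolc1 (-0.25, limma adjusted p = 0.104) and Gnl2 (-0.02, limma adjusted p = 0.869). The 1 member higher in bFGF-JB6 colonies became 5 with all probe sets tested separately, 2 with genes at or above the median level, cyclic loess or a trended robust variance, and 0 at 2-fold. Between monolayers the 1 member lower became 2 with all probe sets and 0 at 2-fold, and 0 to 1 with an array left out (0 without RT101 monolayer replicate 1); the 37 higher became 19 at 2-fold. Between colonies the 3 lower became 5 on averaging the probe sets of each gene, 7 with all probe sets and 0 at 2-fold, and the 25 higher became 2 at 2-fold. Averaging the probe sets of a gene, the colony difference between lines reversed for Gnl2 (-0.22, limma adjusted p = 0.0455), Ddx18 (-0.59, limma adjusted p = 0.000166) and Nip7 (-0.0088, limma adjusted p = 0.947), whose dim probe sets oppose the bright ones. A replicate block from the titles left 37 members lower in RT101 colonies, 18 in bFGF-JB6 colonies and 27 with the more negative change in RT101; a block from the letters of the descriptions gave 37, 18 and 29. For RT101, letters correlated at 0.15 and -0.13 and title numbers at -0.25 and -0.15. RMA signals have no detection call, so how far dim probe sets lie above background is unknown.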
